A study of Mus musculus with 21 samples.

Results

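Neutrophil adhesion molecules were examined in RNA-Seq libraries of polymorphonuclear neutrophils (PMNs) and renal tubular epithelial cells (TECs). Integrins, selectin ligands and molecules that act beside them were chosen by gene symbol, which gave 9 genes (Itgam, Itgb2, Itgal, Itgax, Itga4, Selplg, Icam1, Cd177 and Adam8) of 54123 genes in the annotation. The mice were wildtype, per the study's methods male C57BL/6 animals of 8 to 12 weeks, and cells were taken 24 hours after surgery. Surgery was either renal ischemia-reperfusion injury (IRI), in which both renal pedicles were clamped for 32 minutes, or a sham operation without clamps. Remote ischemic preconditioning (RIPC), 3 inflations of a hind limb cuff of 5 minutes each, or a control procedure came before it. This gave 8 groups and 21 libraries. The PMN groups held 2 libraries after sham surgery with the control procedure, 3 after sham surgery with RIPC, 2 after IRI with the control procedure and 3 after IRI with RIPC. The TEC groups held 3, 3, 2 and 3 libraries in the same order.

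Leukocyte adhesion runs in steps. Selectins on the endothelium catch the glycoprotein PSGL-1, encoded by Selplg, and let a neutrophil roll along the vessel wall. Activated integrins, chief among them the beta2 integrins LFA-1 and Mac-1, then bind ICAM-1 and hold the cell until it crawls and leaves the vessel. In the kidney this sequence is known for bringing neutrophils into tissue after ischemia. Each beta2 integrin joins the common beta subunit, encoded by Itgb2, with its own alpha subunit, encoded by Itgal in LFA-1, Itgam in Mac-1 and Itgax in CD11c/CD18. Itga4 encodes the alpha subunit of VLA-4, which binds VCAM-1. Cd177 encodes a neutrophil surface glycoprotein, and Adam8 a membrane metalloprotease that can shed adhesion molecules.

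A library held 20881334 to 30507235 reads in PMNs and 21479605 to 51624602 reads in TECs. Levels are given as normalized CPM (counts scaled to library size, without the reads of X, Y and mitochondrial genes). The limit that a count of 0 allows, 3 reads, corresponded to between 0.0643 and 0.153 CPM. This limit covers counting error only. It assumes independent reads, which the 2 summed files of a library are not, so it may be too low. In the libraries labelled as blood neutrophils, 8 of 10 neutrophil markers passed 3 reads in every library after sham surgery and 10 of 10 after IRI. Their summed level was 5942 to 25166 CPM after sham surgery and 12632 to 33390.2 CPM after IRI, against at most 33 and 107 CPM in TECs. Markers of the proximal tubule were also present in PMN libraries, 10 of 10 above 3 reads in every library, with sums of 1771 to 14455 CPM after sham surgery and 776 to 1485 CPM after IRI. The labels give blood as the source of these cells. Where the tubule and MHC class II transcripts came from was not tested, so the PMN values are levels in these libraries and may not be those of neutrophils alone. Summed macrophage markers were 3313 to 10539 CPM after sham surgery and 9949 to 13934 CPM after IRI, and summed dendritic cell and MHC class II markers were 15337 to 36654 and 1895 to 5067 CPM. In TECs, the 10 proximal tubule markers summed to 21930.3 to 37589 CPM after sham surgery and 3939 to 14613 CPM after IRI. A library stood apart in each cell type. PMN sham control replicate 2 had 13% mitochondrial reads and 15212 genes above 3 reads, where the other PMN libraries had 1.43 to 5.8% and 15976 to 23846 genes, and it held the highest proximal tubule sum of the PMN libraries. TEC sham control replicate 2 had 12846 genes, where the other TEC libraries had 18472 to 22028.

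Of the 9 genes, 5 lie on chromosome 7 in the GRCm38 build (Gencode annotation M21). Itgam (chr7:128062640-128118491) and Itgax (chr7:128129547-128150657) are neighbours on the plus strand, and Itgal (chr7:127296260-127335138) lies on the same strand. Adam8 (chr7:139978932-139992562) and Cd177 (chr7:24743983-24760311) are on the minus strand. Icam1 is at chr9:21015985-21028817, Itgb2 at chr10:77530252-77565708, Itga4 at chr2:79255426-79333123 and Selplg at chr5:113818536-113832644. The 250 bases before the RefSeq start were read from RefSeq promoters (GRCm38.p6), in which 6 of the 9 members had an entry. For Itgax and Icam1 this start differs from the Gencode start given here. They are shown here for the member that passed the test after IRI (Adam8), the neighbouring alpha subunits (Itgam and Itgax) and the counter-receptor (Icam1). Capitals mark matches to 5 motifs searched on both strands: GAGGAA (PU.1), TTGCNNAA (C/EBP), TTCNNNGAA (STAT), TGANTCA (AP-1) and GGAAATTCC (NF-kB).
Itgam: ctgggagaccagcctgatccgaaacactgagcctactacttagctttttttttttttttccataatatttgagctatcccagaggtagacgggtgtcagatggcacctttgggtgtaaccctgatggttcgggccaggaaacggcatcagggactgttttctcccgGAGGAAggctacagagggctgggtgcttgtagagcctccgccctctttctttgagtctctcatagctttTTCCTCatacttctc
Itgax: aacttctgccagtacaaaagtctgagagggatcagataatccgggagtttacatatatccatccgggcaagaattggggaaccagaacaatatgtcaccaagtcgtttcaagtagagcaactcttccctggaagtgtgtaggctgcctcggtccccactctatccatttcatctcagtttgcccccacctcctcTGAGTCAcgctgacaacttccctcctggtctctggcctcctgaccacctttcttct
Icam1: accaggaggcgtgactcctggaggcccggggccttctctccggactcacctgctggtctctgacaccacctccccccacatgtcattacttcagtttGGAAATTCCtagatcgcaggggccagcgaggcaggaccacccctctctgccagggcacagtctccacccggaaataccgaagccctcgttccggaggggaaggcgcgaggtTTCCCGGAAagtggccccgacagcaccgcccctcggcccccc
Adam8: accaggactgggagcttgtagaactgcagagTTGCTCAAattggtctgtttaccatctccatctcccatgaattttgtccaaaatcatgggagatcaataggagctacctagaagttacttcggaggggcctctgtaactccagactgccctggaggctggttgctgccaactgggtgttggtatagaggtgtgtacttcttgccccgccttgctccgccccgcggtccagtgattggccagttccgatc
The sequences are written 5′ to 3′ on the strand of the gene, from chr7:128062390-128062639 (plus strand) for Itgam, chr7:128129300-128129549 (plus strand) for Itgax, chr9:21015690-21015939 (plus strand) for Icam1 and chr7:139992563-139992812 (minus strand) for Adam8. Itgam held 2 matches to GAGGAA, a motif found in 23.3% of 32851 promoters of this length. Adam8 held 1 match to TTGCNNAA, found in 9.56% of them, and Itgax 1 match to TGANTCA, found in 6.75%. Icam1 held 1 match to TTCNNNGAA, found in 7.02%, and 1 to GGAAATTCC, found in 0.286%. These matches describe letters in the windows and are no measurement of binding.

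**Figure D1:**
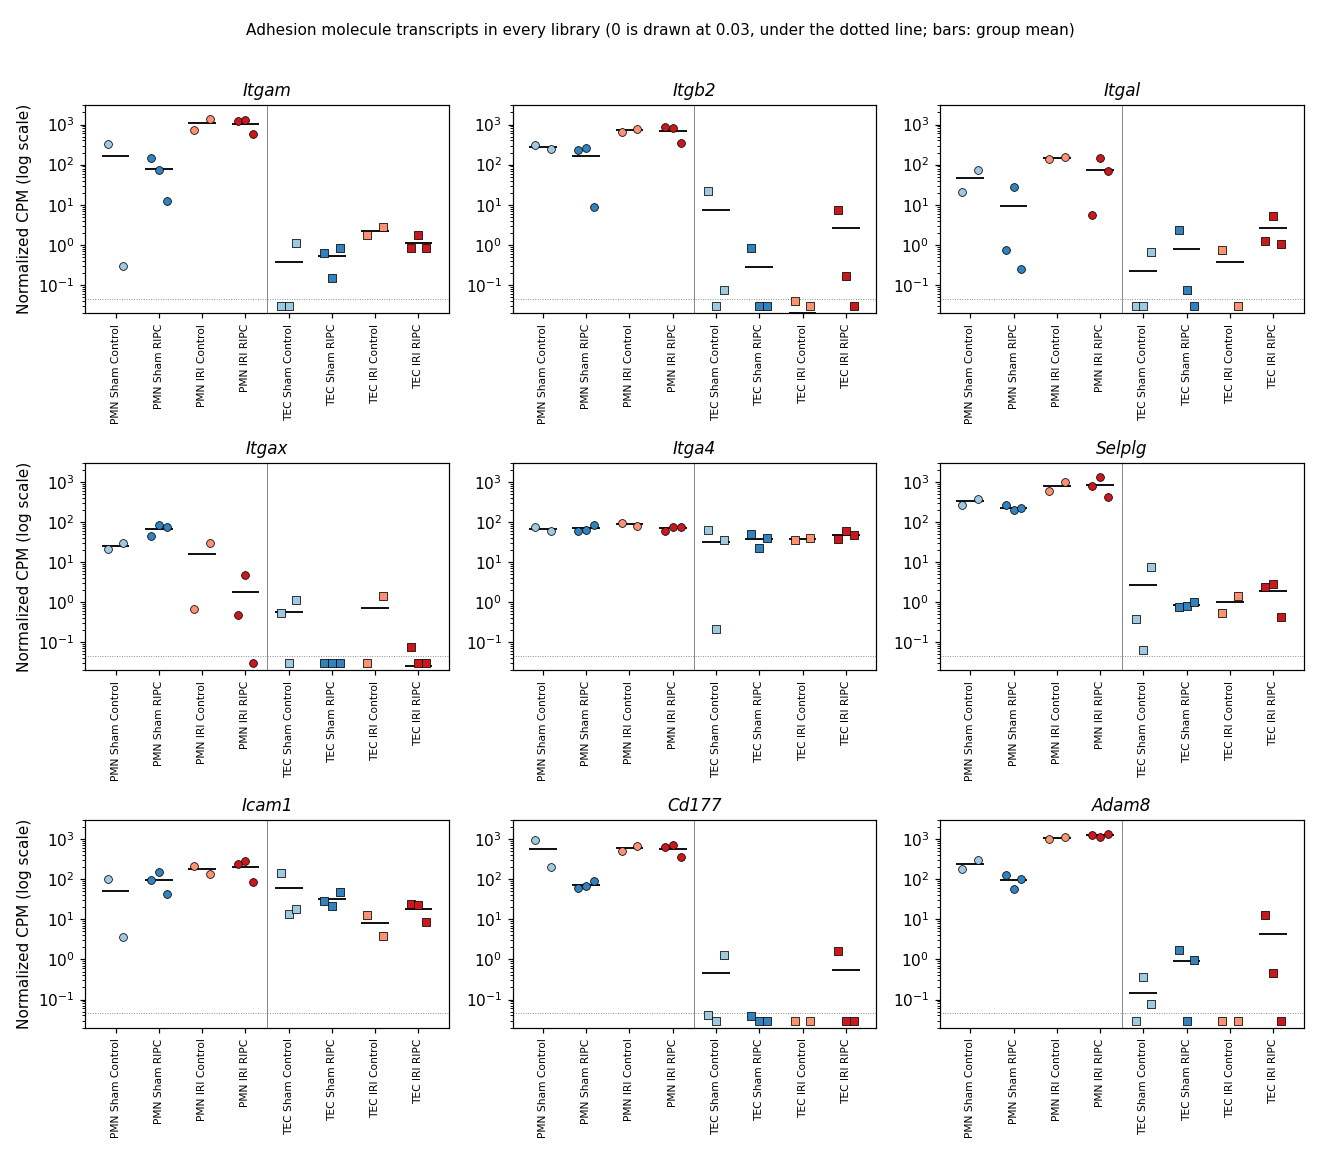
Normalized CPM (log axis) of each of the 9 members in every library, by group, with circles for PMNs, squares for TECs and a bar at the group mean; a value of 0 is drawn at 0.03. Itga4 and Icam1 are the members with medians above 10 CPM in TECs, and Adam8 sits at 1016 to 1349 CPM in the 5 PMN libraries after IRI and at 56.2 to 311 CPM in the 5 after sham surgery.

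PMNs and TECs were compared first, to describe the level of each member in either cell type. The members were chosen as neutrophil adhesion molecules with earlier results of these data known. Calls in favour of PMNs are therefore no independent result. With at least 10 counts required in every library, 2 members could be tested, and 0 passed after sham surgery. After sham surgery 6 of the 9 members were higher in PMNs (Itgam, Itgb2, Itgax, Selplg, Cd177 and Adam8; edgeR quasi-likelihood test, adjusted p under the threshold of 0.05), where 2.57% of 31646 genes passed in either direction. After IRI 6 of 9 were higher in PMNs (Itgam, Itgb2, Selplg, Icam1, Cd177 and Adam8), where 2.66% of all genes passed. No overlap between PMNs and TECs, with PMNs higher, was seen for 4 of 9 members after sham surgery (3.72% of all genes) and for 7 of 9 after IRI (4.01%). In such bulk samples, fewer cells of a type and less RNA per cell cannot be told apart. With sham control replicate 2 of PMNs and of TECs left out, a choice made after seeing the data, 5 of 9 passed after sham surgery, and Itgb2 no longer did (log2 difference 6.99, adjusted p = 0.0824).

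Among the beta2 integrin subunits, Itgam averaged 111 CPM in PMNs after sham surgery and 0.453 CPM in TECs (log2 difference 7.96, SE 1.38, adjusted p = 0.0019). After IRI the means were 1044 and 1.59 CPM (log2 difference 9.35, SE 1.71, adjusted p = 0.00377). Itgam shared 66.3% of its 50-base words with the overlapping gene model Gm49368, which held 1602 reads over all libraries beside 136014 for Itgam, so the division of reads between them is uncertain. Itgb2 averaged 212 CPM in PMNs and 3.92 CPM in TECs after sham surgery (log2 difference 7.19, SE 1.74, adjusted p = 0.0274). In TECs 1 library, sham control replicate 1, held 22.6 CPM of Itgb2, and 4 of the 6 sham libraries were at or under 3 reads. Leaving out any of those 4 moved the adjusted p to between 0.0699 and 0.089. After IRI Itgb2 averaged 705 CPM in PMNs and 1.56 CPM in TECs (adjusted p = 0.0129). Of the 5 TEC libraries after IRI 3 were at or under 3 reads of Itgb2, and RIPC replicate 1 held 7.6 CPM. Itgal averaged 24.2 and 0.516 CPM after sham surgery (log2 difference 5.59, SE 1.63, adjusted p = 0.075) and 103 and 1.69 CPM after IRI (log2 difference 6.70, SE 1.98, adjusted p = 0.083). Itgal missed the threshold in both comparisons. By DESeq2, 6 of 9 members passed after sham surgery (Itgam, Itgal, Itgax, Selplg, Cd177 and Adam8), where 15% of all genes did, and 7 of 9 after IRI (the same with Icam1), where 11.8% did. DESeq2 gave no adjusted p for Itgb2 in either. Itgax averaged 50.5 CPM in PMNs and 0.279 CPM in TECs after sham surgery (adjusted p = 0.0118), and 7.25 and 0.295 CPM after IRI (adjusted p = 0.209 by edgeR and 0.0126 by DESeq2). No fitted difference is given where every library of a group in the contrast was at or under 3 reads, since it then depends on the fit's prior count.

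Selplg, which encodes the selectin ligand PSGL-1, averaged 266 CPM in PMNs and 1.76 CPM in TECs after sham surgery (log2 difference 7.48, SE 0.95, adjusted p = 7.98e-05). After IRI the means were 823 and 1.54 CPM (log2 difference 9.22, SE 1.2, adjusted p = 0.000169). The reads of the cell types were assigned to different transcripts. In PMNs 97% of the Selplg reads were on protein-coding transcripts, and in TECs 0.217% of 460 reads, with 99.8% on the retained-intron transcript Selplg-202. Salmon's division of 50-base reads between transcripts is an estimate. Cd177 averaged 271 CPM in PMNs and 0.234 CPM in TECs after sham surgery (adjusted p = 0.000262), and 582 and 0.324 CPM after IRI (adjusted p = 0.000849). In TECs 5 of 6 sham libraries and 4 of 5 IRI libraries were at or under 3 reads of Cd177. Adam8 averaged 154 and 0.526 CPM after sham surgery (log2 difference 8.63, SE 1.37, adjusted p = 0.00098) and 1172 and 2.63 CPM after IRI (adjusted p = 0.000946). Of the 5 TEC libraries after IRI 3 were at or under 3 reads of Adam8, and RIPC replicate 1 held 12.7 CPM.

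Itga4 and Icam1 were measured in both cell types. Itga4 ranged from 58.8 to 96.3 CPM over the 10 PMN libraries and from 0.214 to 61.4 CPM over the 11 TEC libraries, with a TEC median of 39.7 CPM. The lowest TEC value came from sham control replicate 2. The log2 difference between PMNs and TECs was 0.97 (SE 0.74, adjusted p = 0.537) after sham surgery and 0.87 (SE 0.79, adjusted p = 0.748) after IRI. Of the Itga4 reads in TECs 94.8% were on the protein-coding transcript Itga4-201. Cerkl, a gene that overlaps Itga4 on the opposite strand, shares 7.32% of its 50-base words and held 779 reads in all beside 26758 for Itga4; the counting is not stated to use strand. Icam1, the counter-receptor that LFA-1 and Mac-1 bind, differed by 0.69 on the log2 scale after sham surgery (SE 0.76, adjusted p = 0.734), and by -1.23 without PMN sham control replicate 1 (adjusted p = 0.654). After IRI PMNs held more Icam1, with means of 192 and 14.4 CPM (log2 difference 3.94, SE 0.92, adjusted p = 0.0211). Without TEC IRI control replicate 1 this adjusted p was 0.0596, and without replicate 2 it was 0.135. Of the Icam1 reads over all libraries 91.2% were on protein-coding transcripts in PMNs and 80.5% in TECs. TEC sham control replicate 1 held 3518 of the 8828 TEC reads, with 93.8% coding. In the TEC libraries after IRI the coding share was 0 to 72.9%, and in PMN sham control replicate 2 it was 0%. The opposite-strand gene Gm47079 shares 10.7% of the Icam1 words.

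IRI was then compared with sham surgery within PMNs, averaged over RIPC and control. Of the 9 members 1, Adam8, rose after IRI, where 0.472% of 25003 genes passed in either direction. The median log2 change of the 9 members was 1.59 and that of all genes 0.04. For 4 of 9 members (Itgam, Itgb2, Selplg and Adam8) the 5 IRI libraries lay above the 5 sham libraries without overlap, as they did for 3.6% of all genes. By DESeq2, 3 of 9 passed (Selplg, Cd177 and Adam8), where 7.81% of all genes did. Beside these values, the summed dendritic cell and proximal tubule markers were lower after IRI than after sham surgery without overlap, and so were the macrophage markers C1qa (912 to 2411 against 71.2 to 409 CPM) and C1qb (1282 to 3028 against 103 to 542 CPM). The monocyte and macrophage marker Cd14 was higher (538 to 2887 against 8419 to 12133 CPM). It made up most of the macrophage sum after IRI, 9949 to 13934 CPM. The other macrophage markers (Adgre1, C1qc, Csf1r, Cd68, Mertk, Fcgr1 and Mrc1) overlapped. Mitochondrial reads were 2.36 to 13% after sham surgery and 1.43 to 3% after IRI. The neutrophil sum was 12632 to 33390.2 CPM after IRI. After sham surgery it was 5942 to 11107 CPM except in sham control replicate 1, with 25166 CPM. Of its markers, Cxcr2 (30.8 to 278 against 568 to 916 CPM) and Mmp9 (109 to 498 against 517 to 1837 CPM) were higher after IRI without overlap, and the rest overlapped. The part of all these markers and reads in the changes was not tested.

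Adam8 was at 178 and 311 CPM in PMNs after sham surgery with the control procedure, and at 125, 56.2 and 101 CPM with RIPC. After IRI it was at 1016 and 1108 CPM with the control procedure, and at 1276, 1113 and 1349 CPM with RIPC. Every IRI library was above every sham library. The log2 change was 2.92 (SE 0.30, adjusted p = 0.00884). It was 3.15 without PMN sham control replicate 2 (adjusted p = 0.0133) and 2.75 without replicate 1 (adjusted p = 0.00672). The call was lost when both cell types were fitted together (adjusted p = 0.344) or when the groups without RIPC alone were contrasted (log2 change 2.12, adjusted p = 0.532). Gm16201, a transcript on the opposite strand of Adam8, held 1474 reads in all libraries beside 155104 for Adam8.

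Itgam was at 321 and, in sham control replicate 2, 0.291 CPM after sham surgery with the control procedure, and at 146, 72.8 and 12.7 CPM with RIPC. After IRI it was at 749.9 and 1407 CPM, and with RIPC at 1198, 1291 and 574 CPM. The groups did not overlap, but the sham libraries differed widely among themselves, and the log2 change of 3.24 (SE 1.29) had an adjusted p = 0.412. It was 2.74 without PMN sham control replicate 2 (adjusted p = 0.385) and 7.78 without PMN sham control replicate 1 (adjusted p = 0.00985).

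Itgb2, the common subunit, was at 314 and 244 CPM after sham surgery, and at 226, 267 and 8.6 CPM with RIPC. After IRI it was at 661 and 796 CPM, and with RIPC at 871, 842 and 352 CPM. The low sham value came from sham RIPC replicate 3, where none of the Itgb2 reads were on a protein-coding transcript. The log2 change was 1.71 (SE 0.73, adjusted p = 0.412). Itgal had a log2 change of 2.32 (SE 1.30, adjusted p = 0.474), with 0.255 to 71.7 CPM after sham surgery and 5.48 to 156 CPM after IRI. Its groups overlapped.

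Itgax, the alpha subunit of CD11c/CD18 and known also as a dendritic cell marker, was at 20.9 and 29.5 CPM after sham surgery, and at 44.2, 84.6 and 73.2 CPM with RIPC. After IRI it was at 0.663 and 30.3 CPM, and with RIPC at 0.471, 4.84 and 0 CPM. The IRI libraries were lower except control replicate 2, and the log2 change of -2.97 (SE 1.45) had an adjusted p = 0.413. Of the 8 dendritic cell markers 5 passed 3 reads in every sham PMN library and 4 in every IRI library, and Clec9a was at or under 3 reads in every IRI library. Cd74, the invariant chain of MHC class II, was at 8309 to 19189.8 CPM after sham surgery and 1180.5 to 3629 CPM after IRI, and H2-Ab1 and H2-Aa were also lower without overlap. Cd209a, a marker outside MHC class II, was lower without overlap too (27.4 to 144 and 0 to 13.3 CPM). The ranges of Flt3 (0 to 11.4 and 0 to 44.9 CPM), Xcr1 (7.7 to 14.2 and 8.09 to 24.6 CPM) and Ccr7 (0 to 21 and 0 to 23.4 CPM) overlapped. By size, the dendritic cell sum follows the MHC class II genes. The part of these cells in the Itgax values was not tested. Itgax shares 8.02% of its 50-base words with Itgad.

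**Figure D2:**
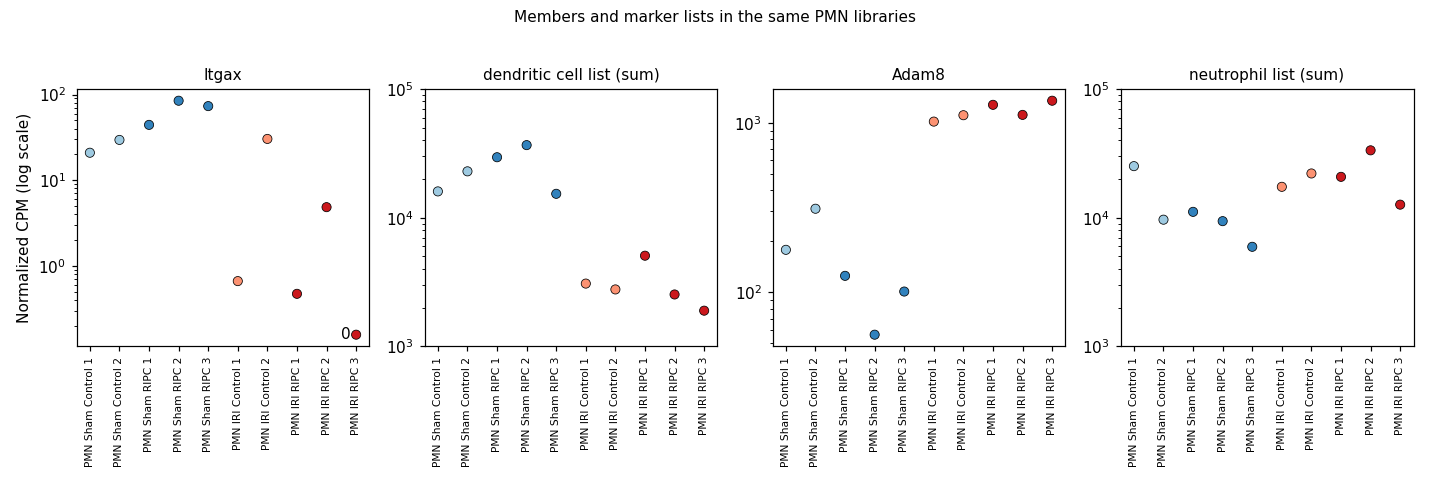
Normalized CPM (log axes) of Itgax and Adam8 and the summed CPM of the dendritic cell and neutrophil marker lists in the same 10 PMN libraries, a point per library. The dendritic cell sum is 15337 to 36654 CPM after sham surgery and 1895 to 5067 CPM after IRI. Cd74, H2-Ab1 and H2-Aa carry most of it. The neutrophil sums overlap through sham control replicate 1 (25166 CPM). The other sham libraries hold 5942 to 11107 CPM and the IRI libraries 12632 to 33390.2 CPM.

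Per length, on the TPM scale (reads scaled by transcript length and library), the alpha subunits stood in different proportions. Itgam made up 85 to 99.5% of the summed TPM of Itgam, Itgal and Itgax in the 5 PMN libraries after IRI. After sham surgery its share was 88.2 and 0.254% with the control procedure, and 73, 21.1 and 11.3% with RIPC. Itgax made up 6.33 and 31.7% in the sham control libraries and 26.6, 70.2 and 82.7% in the sham RIPC libraries, but at most 2.26% after IRI. In sham control replicate 2 Itgal was the largest share, with 68.1%. These shares are a description of mRNA and were not tested.

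**Figure D3:**
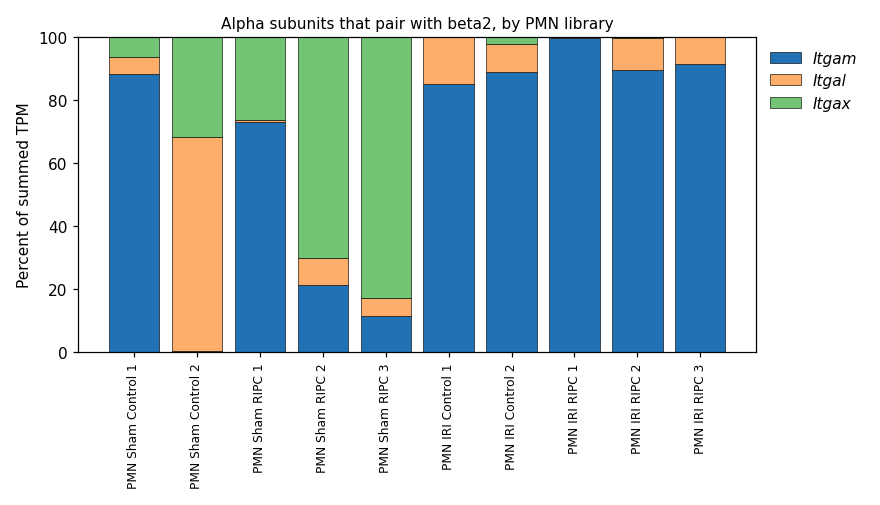
Share of Itgam, Itgal and Itgax in their summed TPM, as percent, in each PMN library. Itgam makes up at least 85% in the 5 IRI libraries and 0.254 to 88.2% in the 5 sham libraries.

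Selplg was at 269 and 380.5 CPM after sham surgery, and at 261, 194 and 228 CPM with RIPC. The IRI libraries held 594 and 989 CPM, and 789.5, 1325 and 416 CPM with RIPC. The groups did not overlap, and the log2 change of 1.59 (SE 0.35) had an adjusted p = 0.13 by edgeR and 0.0207 by DESeq2. Selplg had the highest median TPM of the members in PMNs, 105 after sham surgery and 349.9 after IRI. After sham surgery its range of 78.9 to 143 TPM lay above that of Itgb2, next in order, but overlapped that of Cd177 (10 to 181 TPM). After IRI the ranges of neighbours in the order Selplg, Adam8, Itgb2, Itgam and Cd177 overlapped. Icam1, next in that order, lay below Cd177 without overlap.

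Cd177 was at 932 and 203 CPM after sham surgery, and at 59.8, 68.1 and 92.5 CPM with RIPC. The IRI libraries held 519 and 691 CPM, and 639.7, 705 and 356 CPM with RIPC. Sham control replicate 1 had the highest value of all. The log2 change after IRI was 1.52 (SE 0.43, adjusted p = 0.25), and 2.26 without that library (adjusted p = 0.0255). Icam1 was at 3.68 (sham control replicate 2) to 155 CPM after sham surgery and 85.7 to 285 CPM after IRI (log2 change 1.40, SE 0.80, adjusted p = 0.479), with overlap. Itga4 was at 58.8 to 85.5 CPM after sham surgery and 60.4 to 96.3 CPM after IRI (log2 change 0.20, SE 0.36, adjusted p = 0.899).

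**Figure D4:**
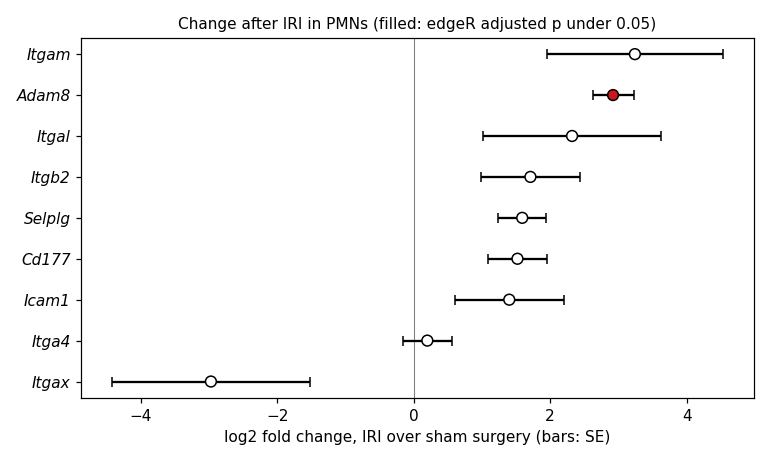
Log2 fold change of each member between IRI and sham surgery in PMNs (points) with its standard error (bars), filled where the edgeR adjusted p was under 0.05. Adam8 is filled at 2.92, Itgam is the highest at 3.24 with an SE of 1.29, and Itgax is the one point below 0, at -2.97.

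In TECs, 0 of 9 members passed the test between IRI and sham surgery, where 1.12% of 25818 genes did. At an unadjusted p under 0.05 there was 1 (Icam1), where 14.6% of all genes were, and DESeq2 called 0. Icam1 was at 146, 13.9 and 18.2 CPM after sham surgery with the control procedure, and at 28.5, 21.6 and 49.2 CPM with RIPC. After IRI it was at 12.5 and 3.87 CPM, and with RIPC at 24.1, 23.1 and 8.56 CPM. The groups overlapped (log2 change -1.85, SE 0.75, adjusted p = 0.279). Itga4 had a log2 change of 0.30 (SE 0.82, adjusted p = 0.96). The change after IRI did not pass a test of its difference between PMNs and TECs for any member (0 of 9, and 0% of 31646 genes; 2 of 9, Icam1 and Adam8, at an unadjusted p under 0.05, where 9.78% of all genes were). For Icam1 that difference was 3.25 on the log2 scale (SE 1.15, adjusted p = 0.327), and by DESeq2, which called 7.55% of all genes, it was 3.28 (adjusted p = 0.0285).

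RIPC was compared with the control procedure within each surgery. After sham surgery in PMNs 0 of 9 members passed by edgeR, where 0.004% of 25003 genes did, and 2 (Cd177 and Adam8) had an unadjusted p under 0.05, as 4.61% of all genes did. Both Cd177 control libraries, 932 and 203 CPM, lay above the RIPC libraries at 59.8 to 92.5 CPM (log2 difference -2.95, SE 0.60, adjusted p = 0.679). Such absence of overlap held for 4 of 9 members (Selplg, Cd177 and Adam8 lower with RIPC, Itgax higher) and for 3169 of 25003 genes. The library at 932 CPM also had a neutrophil marker sum of 25166 CPM, against 5942 to 11107 CPM in the other sham PMN libraries. The part of this sum in the difference was not tested. DESeq2, which called 3.25% of all genes here, called Cd177 (log2 difference -2.88, adjusted p = 0.00385). With apeglm shrinkage and an s value under 0.01, which called 2.11% of all genes, Cd177 (s = 8.05e-05) and Adam8 (s = 0.00613) were called lower with RIPC. Adam8 differed by -1.38 (SE 0.38, adjusted p = 0.702) by edgeR, and by -0.92 without PMN sham control replicate 2. Without replicate 1, Cd177 differed by -1.47 (adjusted p = 0.633). After IRI in PMNs 0 of 9 passed (0% of all genes), with 0 at an unadjusted p under 0.05 and 0 by DESeq2. In TECs 0 of 9 passed after sham surgery (0% of all genes) and 0 of 9 after IRI (0.00775%), again with 0 unadjusted and 0 by DESeq2. The interaction of RIPC and surgery passed for 0 of 9 members in PMNs and in TECs (0% of all genes in each), with 2 unadjusted in PMNs, where 5.74% of all genes were (Cd177, 2.86, SE 0.86, adjusted p = 0.718, and Adam8, 1.61, SE 0.55, adjusted p = 0.718), 0 unadjusted in TECs and 0 by DESeq2 in either.

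Other genes of the adhesion pathway were read from 5 lists. In PMNs after IRI, where 0.472% of all genes passed, 1 of 12 tested selectins, selectin ligands and their enzymes rose, Cd44, a glycoprotein that binds E-selectin (81.4 to 207 CPM after sham surgery and 674 to 934 CPM after IRI, log2 change 2.80, SE 0.35, adjusted p = 0.0176). Of 22 genes of integrin activation and signaling 1 rose, the Src family kinase Lyn (71.2 to 191 and 535 to 729 CPM, log2 change 2.34, SE 0.32, adjusted p = 0.0232). By edgeR, none of 20 other integrin subunits, 14 counter-receptors or 11 proteases passed in PMNs, with 2, 2 and 3 at an unadjusted p under 0.05, where 11.9% of all genes were. In TECs, where 1.12% of all genes passed, Gcnt1, an enzyme that builds the core of selectin ligands, fell after IRI, with 66.4 to 355 CPM after sham surgery and 1.77 to 47.4 CPM after IRI (log2 change -3.80, SE 0.79, adjusted p = 0.0344). Sirpa, the receptor of CD47, also fell in TECs (log2 change -4.20, SE 0.81, adjusted p = 0.0238); its groups overlapped and it was named after its values were seen. The summed proximal tubule markers were lower after IRI in the same TEC libraries without overlap. Singly, Slc34a1, Slc5a2, Kap, Gatm and Prom1 overlapped. The part of these markers in the falls was not tested. The median log2 change of a list after IRI in PMNs ran from -0.75 (other integrin subunits) to 1.32 (activation and signaling).

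Between the cell types, 8 of 22 genes of integrin activation and signaling were higher in PMNs after sham surgery and 9 of 22 after IRI, where 2.57% and 2.66% of all genes passed in either direction. Tln2, which encodes talin-2, was lower in PMNs after sham surgery (1.44 to 27.6 CPM against 11.1 to 222 CPM, log2 difference -4.18, SE 0.98, adjusted p = 0.0221); its groups overlapped and it was named after its values were seen. Fermt3, which encodes the integrin activator kindlin-3, was at 24.2 to 372 CPM in PMNs and 0 to 8.06 CPM in TECs after sham surgery (log2 difference 8.31, SE 1.37, adjusted p = 0.00116). The kinase Fgr was at 33.6 to 138 CPM in PMNs and at most 0.748 CPM in TECs (log2 difference 8.58, SE 1.52, adjusted p = 0.00245). Of 11 proteases, Mmp8 and Mmp9, collagenase and gelatinase of neutrophil granules, were higher in PMNs after sham surgery, at 153 to 2260.2 and 109 to 498 CPM against at most 0.0858 and 0.151 CPM in TECs (adjusted p = 1.29e-06 and 0.000129). After IRI Mmp8, Mmp9 and Adam19 were higher in PMNs, and so were Sirpa, Cd47 and Vcam1 of 15 counter-receptors and transmigration genes. Vcam1, the ligand of VLA-4, was at 23 to 184 CPM in PMN libraries and 0.559 to 5.38 CPM in TECs after IRI (log2 difference 6.13, SE 1.47, adjusted p = 0.0256). By edgeR, none of 20 other integrin subunits passed in either comparison, with 3 at an unadjusted p under 0.05 after sham surgery and 5 after IRI, where 17.3% and 14.5% of all genes were.

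Genes among those with the most similar pattern over the 21 libraries were found by Pearson's r of log2(CPM + 1), as a description in which the libraries fall into 2 cell types. For Itgb2 they were Sirpb1c (r = 0.968), Neurl3 (0.967) and Gm14548 (0.962). For Cd177 they were Ifitm6 (0.991), Slfn1 (0.99) and Slc16a3 (0.985), and for Icam1 Gpcpd1 (0.861) and Rab27a (0.837). Within the 10 PMN libraries r was 0.69 for Gm14548 with Itgb2 and 0.91 for Ifitm6 with Cd177.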

How the data were processed

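RNA-Seq was measured in PMNs and TECs as single-end reads of 50 bases. Per the labels and the study's methods, the authors trimmed reads with Trim Galore 0.6.4 and quantified Gencode transcripts (mm10) with Salmon 1.0.0. The deposited files hold estimated counts and TPM per transcript, in 2 files per library whose difference is not given in the sources used here. All transcripts of a gene and both files of a library were added for the estimated counts, which were then rounded; the TPM deposited by the authors were added per gene and averaged over the files. The files of a library differed by 0.153 to 0.326 of the spread that Poisson counting gives, so they are not independent counts and the summed reads overstate the depth. The study's methods name a later Gencode release than M21, from which genes and transcript types were read here. Transcripts were matched by ID and version, or else by ID alone. Of 140748 transcripts 884 had no entry in M21 (0.139 to 0.255% of reads). A library held 20881334 to 51624602 reads. Genes of the X, Y and mitochondrial chromosomes were left out before scaling and testing, and counts over all genes leave them out too. Mitochondrial reads were 1.43 to 13% in PMNs and 13 to 29% in TECs, so the share left out differed by cell type.

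Tests were edgeR 4.0.16 quasi-likelihood fits (R 4.3.3, limma 3.58.1) with TMM factors from all 21 libraries, filterByExpr and Benjamini-Hochberg adjustment over all genes tested (threshold 0.05), within a cell type for surgery and RIPC and over both cell types otherwise. The authors tested with DESeq2; DESeq2 1.42.0 and apeglm 1.24.0 served as alternatives, beside other filters, scalings, single files and left-out libraries. The steps were tested on simulated data.

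Every member is named. From each list, at most 3 rising and 3 falling genes, by adjusted p and with groups that did not overlap, are named in the comparisons of IRI with sham surgery and of PMNs with TECs; further list genes were named after their values were seen. Some genes that this rule selects are not reported here. The members and lists were chosen with earlier results of these data known. The study describes the libraries of a group as biological replicates; the labels tie none of them to an animal.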

Additional observations from a re-analysis of the deposited data

How the results depend on the processing

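Of the values recomputed with a library left out, 407 kept their direction and side of the threshold, 11 passed it newly, 6 no longer passed and 1 turned its direction (Icam1 between PMNs and TECs after sham surgery, -1.23 on the log2 scale without PMN sham control replicate 1, range -1.23 to 1.63 over the left-out libraries). Under the other alternatives the numbers were 227, 19, 3 and 0. With a library left out, the members called ranged from 5 to 7 between PMNs and TECs after sham surgery, from 5 to 7 after IRI, from 1 to 3 for IRI in PMNs, and were 0 in each other comparison. A left-out library of a group of 2 leaves 1 library, which is assumed to vary like the other groups.

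With at least 10 counts in every library, fewer genes were tested. Between PMNs and TECs, 0 of 2 members tested were called after sham surgery (689 of 4319 genes) and 1 of 2 after IRI (821 of 4319). For IRI in PMNs 2 of 6 were called (444 of 6739 genes). With no filter on low counts, 5 members were called for IRI in PMNs (1041 of 38823 genes) and 1 for RIPC after sham surgery in PMNs (155 of 38823). For the difference of the IRI effect between cell types 2 were called (722 of 43623 genes). DESeq2 called 3, 1 and 1 in these comparisons, and apeglm 2 for RIPC after sham surgery in PMNs. With all 8 groups in one fit (144 of 31646 genes), or without the RIPC groups in the contrast (0 of 25003), 0 members were called for IRI in PMNs. The cause of these shifts was not tested.

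Within a cell type, deviations of same-numbered libraries of different groups correlated by -0.023 to 0.029 in PMNs and -0.08 to 0.123 in TECs. Those of differently numbered libraries correlated by -0.029 to 0.027 and -0.102 to 0.058. Whether PMN and TEC libraries of the same group and number come from one animal was not examined. With a replicate block, 6 members were called between PMNs and TECs after sham surgery (746 of 31646 genes) and 6 after IRI (837 of 31646). For IRI in PMNs 1 member was called, while the genes called there went from 118 to 26.

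Counts over all genes moved more. For IRI in PMNs, 118 genes became 0 to 1953 under other settings and 16 to 416 with a library left out; in TECs, 288 became 1 to 2227 and 65 to 693. Between PMNs and TECs, 814 became 559 to 4755 (515 to 1227 with a library left out) after sham surgery and 841 became 817 to 3735 (572 to 1243) after IRI. The difference of the IRI effect went from 0 to at most 2388 (134). RIPC after sham surgery went from 1 to at most 813 (11) in PMNs and from 0 to at most 427 (5) in TECs, RIPC after IRI from 0 to at most 429 (0) in PMNs and from 2 to at most 698 (22) in TECs, and the interaction from 0 to at most 666 (8) in PMNs and 596 (11) in TECs.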
